A study of Mus musculus with 2 samples.

Results

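The acinar transcription factors described here are Ptf1a, Rbpjl, Bhlha15, Nr5a2, Gata4 and Gata6, 6 of 16791 genes that could be named on a whole-genome mouse array. They were chosen by name, with earlier results of these data known. Every gene probe whose RefSeq accession or described symbol maps to one of them was taken, older symbols such as Bhlhb8 and Rbpsuhl included. This gave 10 of 41174 probes. All 10 were well above background in both genotypes on both arrays, and none was saturated.

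RNA came from the pancreas of mice at postnatal day 3. The mutant animals were homozygous for the Glis3 allele written Glis3zf/zf, also named Glis3KO in the labels, and the animals set against them were wild type (WT). Glis3 is a zinc finger protein that regulates transcription, and the series addressed its part in the development of pancreatic beta cells. RNA of 2 pups was pooled per genotype, and the same 2 pools were hybridised together on 2 arrays with the dyes exchanged. Each genotype is thus 1 sample. No value has a check across animals and no test between genotypes can be made. The nature of the allele, the strain and the litters are not given in the sources used here.

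Acinar cells make and secrete the digestive enzymes and form most of the exocrine pancreas. Ptf1a, a basic helix-loop-helix (bHLH) protein, pairs with a broadly expressed bHLH partner and with Rbpj or its pancreas-restricted relative Rbpjl to form the PTF1 complex, which drives the enzyme genes. The complex binds an E-box and an Rbpj-type site spaced by whole turns of the helix, and Rbpj gives way to Rbpjl as acinar cells mature. The gene for Rbpjl is itself a known target of PTF1. Nr5a2, an orphan nuclear receptor, acts with PTF1 on many enzyme genes. Bhlha15, also called Mist1, is a bHLH factor that organises the secretory apparatus. Gata4 and Gata6 are zinc finger factors of pancreatic progenitors, and also of mesenchyme, heart and gut.

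Sequences near a transcription start of Ptf1a and Rbpjl are shown because their transcripts differed in opposite directions in the mutant pool and because PTF1 is known to act on Rbpjl. They come from windows of 250 bases before a start in RefSeq, build GRCm38.p6, and are given 5′ to 3′ on the plus strand. For Ptf1a the whole window is shown (chr2:19445413-19445662), which ends at the base before the annotated gene. For Rbpjl the window (chr2:164402944-164403193) belongs to a start downstream of the outermost start of the gene at 164403081, so that its last 113 bases lie inside the annotated gene. Only the stretch with the motifs is shown for it (chr2:164403090-164403117), and that stretch begins 9 bases past the outermost start. Capitals mark E-boxes (CANNTG) and Rbpj-type cores (TGGGAA, either strand).
Ptf1a: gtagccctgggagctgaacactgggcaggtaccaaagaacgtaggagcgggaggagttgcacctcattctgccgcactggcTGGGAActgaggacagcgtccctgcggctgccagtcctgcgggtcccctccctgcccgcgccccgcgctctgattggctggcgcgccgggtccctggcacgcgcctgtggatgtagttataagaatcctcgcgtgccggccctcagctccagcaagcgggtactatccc
Rbpjl: TGGGAAgcctaCATCTGcccagCAGGTG

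Counted from the downstream start, a TGGGAA core in the Rbpjl window began 104 bases before it, followed by a CATCTG E-box at 93 bases and a CAGGTG E-box at 82 bases. The core and the E-box next to it together match TGGGAANNNNNCANNTG, which overlaps the single motifs and was searched on both strands. The spacing of this joint motif was taken from the Rbpjl window itself, so its match there was fixed in advance. No other spacing was counted. Of 32851 promoter windows of the same length, 34 held the joint motif, or 0.103%. By themselves, CANNTG was in 66.2% of the windows and TGGGAA in 21.6%. The Ptf1a window held 1 TGGGAA core, beginning 169 bases before the start, and no CANNTG. Of the other members, windows were examined for Bhlha15 and Nr5a2 only. CANNTG was matched 3 times for Bhlha15. It was matched 2 times in the window of the outermost start of Nr5a2 and 3 times in that of a start within the gene. The GATA-type motif AGATAA, present in 9.99% of all windows, was matched once for Rbpjl, 31 bases before the downstream start and so also inside the annotated gene, and 2 times at the outermost start of Nr5a2. The Nr5a2-type motif AAGGTCA, in 4.08% of all windows, had no match in any of these windows. A match is a run of letters and not a measured binding site.

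Of the 6 factors, Rbpjl was lower and Ptf1a was higher in the mutant pool, and the other 4 passed neither rule of size used here. No factor passed a rule of size that asked for a mean change of 2-fold or more, with both arrays past 1.5-fold and of one sign. That rule was passed by 0.382% of 16507 detected genes, 0.23% as higher and 0.151% as lower. A smaller rule, with both arrays past 1.2-fold and of one sign, was passed by 2 of the 6, against 4.28% of all detected genes. The 2 were Rbpjl, among the 2.57% called lower, and Ptf1a, among the 1.71% called higher. The share past the smaller rule was larger among bright genes. With genes put in 10 classes by intensity, it was 0.61% in the dimmest class and 9.02% in the brightest, that of Rbpjl. In the class of Ptf1a it was 5.39%. Counted by probe, 2 of the 10 passed the smaller rule, against 3.19% of all detected probes, and 0 the larger, against 0.237%. The median of the 6 mean ratios was -0.13 log2, and that of all detected genes was 0.00. Ratios are log2 of mutant over WT after background correction and loess normalisation, averaged over both arrays, and the value after ± is the distance of each array from that mean. Signals are mean spot intensities as scanned and are not comparable between probes. In RNA of a whole organ, fewer cells that express a gene and less of its RNA per cell cannot be told apart.

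**Figure D1:**
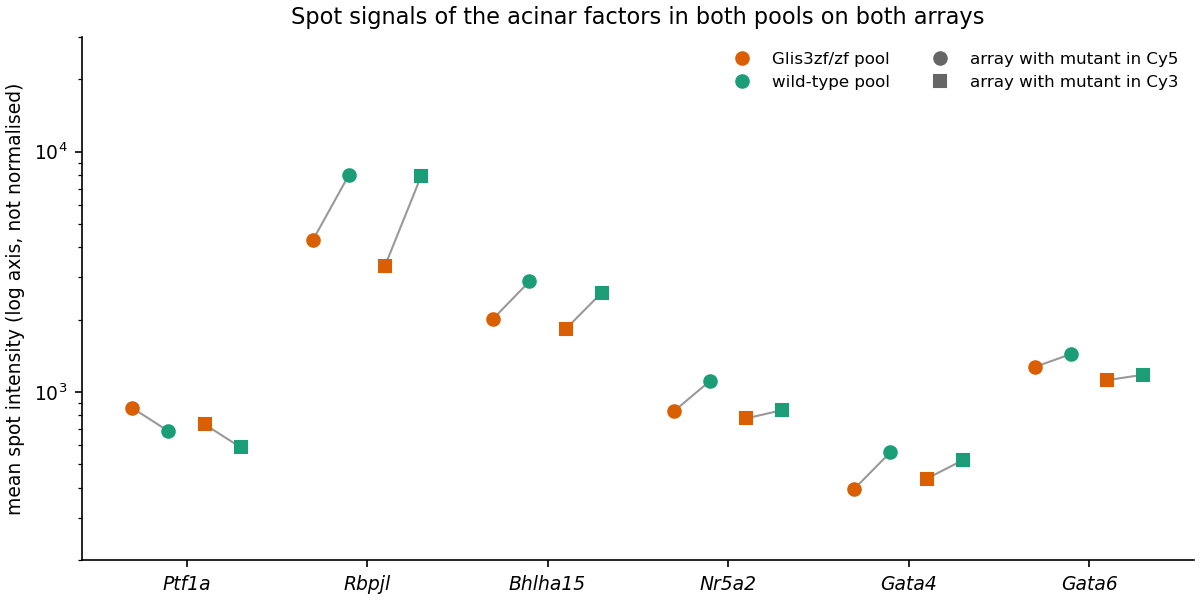
Mean spot intensity (log axis, not normalised) of the probe used for each of the 6 factors, with the Glis3zf/zf pool in orange left of the WT pool in green. Circles show the array where the mutant carried Cy5, squares the array where it carried Cy3, and lines join the channels of 1 probe. For Rbpjl the mutant signals of 4283 and 3353 lie below the WT signals of 7999.7 and 7912, and for Ptf1a the mutant signals lie above the WT signals on both arrays.

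Rbpjl, the acinar subunit of PTF1, was read by 1 probe (NM_009036), whose position in the files is chromosome 2, bases 163871429 to 163871488. Probe positions are in the build of the array files, which those files do not name, and are not to be set against the GRCm38.p6 windows above. With the mutant in Cy5, the spot read 4283 for the mutant against 7999.7 for the WT. With the dyes exchanged it read 3353 for the mutant against 7912 for the WT. Both mutant signals were thus below both WT signals. After normalisation the Cy5 array (the dye of the mutant) gave a ratio of -0.70 and the Cy3 array -0.998, a mean of -0.85 ± 0.15. The mutant pool thus held 55.5% of the WT level, or 1.80-fold less. The technical SD of such a mean, from the disagreement of the arrays over genes of the same intensity class (the brightest of 10), was 0.104. Of 16507 detected genes, 39 had a ratio as low or lower, and 15 of them were among the 1651 genes of that class.

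Ptf1a, the bHLH subunit that founds the acinar programme, was read by 1 probe (NM_018809) on chromosome 2 from 19489104 to 19489163. The spot read 858 for the mutant against 687 for the WT with the mutant in Cy5, and 735 for the mutant against 589 for the WT with the dyes exchanged. Here both mutant signals were above both WT signals, although the median signal over all gene spots on the first array was lower in the mutant channel (208.2) than in the WT channel (265). The ratios were 0.61 and 0.44, a mean of 0.52 ± 0.09, or 1.44-fold higher in the mutant. The technical SD at this intensity was 0.078. A ratio as high or higher was found for 105 of all detected genes, and for 8 of the 1650 genes in the same intensity class.

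The gap between the PTF1 subunits is taken within each array, so that a shift of a whole array by 1 constant leaves it unchanged. Loess corrects by intensity, however, and the 2 probes differ in intensity, so the gap does depend on that step. After loess the ratio of Ptf1a exceeded that of Rbpjl by 1.31 log2 where the mutant carried Cy5 and by 1.44 where it carried Cy3. The mean was 1.37 ± 0.06 against a technical SD of 0.130 for such a difference. Under median centring Ptf1a and Rbpjl had 0.598 and -0.644 where the mutant carried Cy5, and 0.349 and -1.196 where it carried Cy3. It was the widest of the 15 gaps between members on each array.

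**Figure D2:**
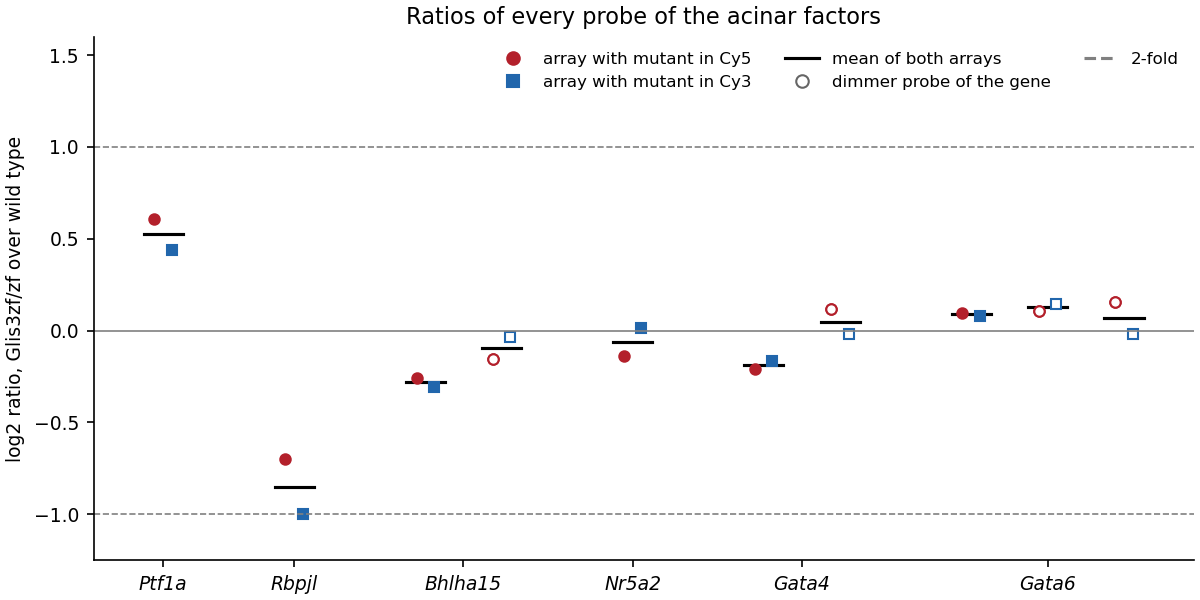
Log2 ratio of Glis3zf/zf over WT for all 10 probes of the 6 factors. Circles show the array where the mutant carried Cy5, squares the array where it carried Cy3, black bars their mean, open symbols the dimmer probes of a gene, and dashed lines 2-fold. Ptf1a lies above 0 and Rbpjl below it on both arrays, and the probes of the other 4 genes lie between -0.30 and 0.15.

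Bhlha15, the factor of secretory cell architecture, had 2 probes (NM_010800) on chromosome 5. The brighter one, from 143235920 to 143235979, read 2021 for the mutant against 2886 for the WT with the mutant in Cy5, and 1826 for the mutant against 2589 for the WT with the dyes exchanged. Its ratios were -0.26 and -0.30, a mean of -0.28 ± 0.02, which is 82.3% of the WT level. The mutant was lower on both arrays, and with the mutant in Cy5 it missed the 1.2-fold limit by less than the technical SD of a single array, 0.147. Of the detected genes, 613 had a ratio as low or lower. The dimmer probe, from 143233192 to 143233251, had ratios of -0.15 and -0.04, with signals of 219.8 and 299.9 in the mutant and of 309 and 314 in the WT. Both probes were thus below 0 on both arrays, by different amounts.

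Nr5a2, the nuclear receptor that works with PTF1, was read by 1 probe (NM_030676) on the minus strand of chromosome 1, from 136693105 to 136693164. It read 832 for the mutant against 1112 for the WT with the mutant in Cy5, and 777 for the mutant against 841 for the WT with the dyes exchanged. The ratio was -0.14 on the first array and 0.01 on the second, a mean of -0.06 ± 0.08. The sign thus changed with the dye, and the mean was no larger than the technical SD of 0.078.

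Gata4, which takes part in early pancreatic and in cardiac development, had 2 probes (NM_008092) on the minus strand of chromosome 14. The brighter one is placed by the files on 22 bases only, from 57729488 to 57729509, and had signals of 396 and 436 in the mutant and of 563 and 520.4 in the WT, in the order Cy5 then Cy3 for the dye of the mutant. Its ratios were -0.21 and -0.17, a mean of -0.19 ± 0.02. The dimmer one, from 57729902 to 57729961, gave 0.12 and -0.02, with signals of 113 and 119.7 in the mutant and of 137 and 110.3 in the WT. The probes disagreed in the sign of their means, -0.19 and 0.05, so no direction is given for Gata4.

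Gata6, known for its part in acinar differentiation, had 3 probes (NM_010258) spread over 30.6 kb of chromosome 18. The brightest read 1272 for the mutant against 1438 for the WT with the mutant in Cy5, and 1121 for the mutant against 1179.8 for the WT with the dyes exchanged. Its ratios were 0.10 and 0.08, a mean of 0.09 ± 0.01, near the technical SD of 0.082. The scanned signals were lower in the mutant channel and the normalised ratios above 0, and median centring in place of loess gave -0.041 on the second array, so no direction is given for Gata6. The next brightest probe had a mean of 0.13. The dimmest had 0.07 and changed sign between arrays, with signals of 77.9 and 92.2 in the mutant and 90.2 and 81.4 in the WT, where the 95th percentile of negative control spots lay between 60.8 and 76.2. The scanner software's own ratio for the dimmest was 0.31 as a mean of 0.53 and 0.09, against 0.07 here.

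In the order of their mean ratios the members ran from Rbpjl at -0.85 through Bhlha15 at -0.28, Gata4 at -0.19, Nr5a2 at -0.06 and Gata6 at 0.09 to Ptf1a at 0.52. Rbpjl was below its neighbour Bhlha15 by 0.57 and Ptf1a above its neighbour Gata6 by 0.44, against technical SDs of 0.147 and 0.114 for these differences. Neighbours among the middle 4 lay closer together. Bhlha15 was below Gata4 by 0.09 (technical SD 0.130), Nr5a2 above Gata4 by 0.12 (0.111) and Gata6 above Nr5a2 by 0.15 (0.114). The ends of the middle 4 were farther apart: Bhlha15 minus Gata6 was -0.37 (technical SD 0.133) and Gata4 minus Gata6 was -0.28 (0.114), each below 0 on both arrays. These gaps are of the brightest probes, and the technical SD does not cover disagreement between probes. With the mutant in Cy5 the dimmer Gata4 probe, at 0.12, was not below the 0.10 of Gata6. As medians over probes Bhlha15 had -0.19, Gata4 -0.069 and Gata6 0.095.

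**Figure D3:**
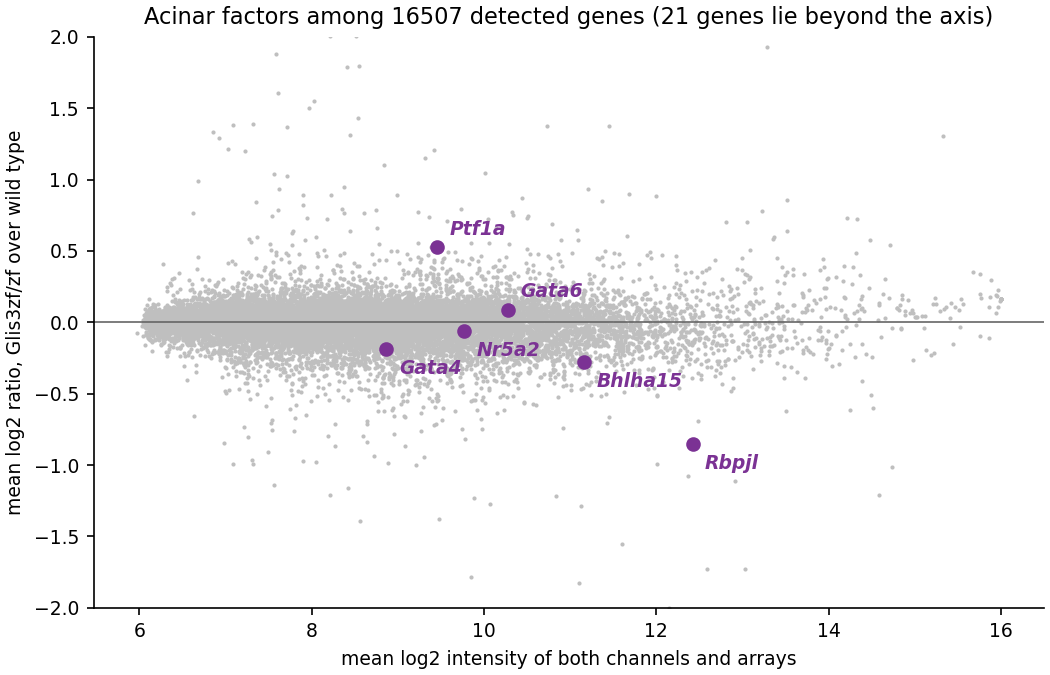
Mean log2 ratio of Glis3zf/zf over WT against mean log2 intensity for 16507 detected genes (grey), with the 6 factors in purple; 21 genes lie beyond the vertical axis limits of 2 log2. Rbpjl at -0.85 and Ptf1a at 0.52 lie at the edges of the cloud, and the other 4 factors lie within it.

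The partners with which Ptf1a forms PTF1, and the Id proteins that block bHLH factors by pairing with their partners, made a list of 8. None passed the 1.2-fold rule, and the median was -0.01. Rbpj, which Rbpjl replaces in the mature complex, had 0.14, with ratios of 0.19 and 0.08. Tcf3, the bHLH partner known as E12/E47, had 0.16 and 0.17 by its other probe, with ratios of 0.33 and -0.01 at the probe used. The lowest members were Id1 at -0.37 (-0.44 by its other probe), whose ratios of -0.53 and -0.22 left it short of the rule on the second array, and Id4 at -0.07 (-0.17 by its other probe).

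Cofactors and relatives of the GATA and Nr5a factors were likewise within the 1.2-fold rule. None of 9 passed, with a median of 0.04. Nr5a1, the steroidogenic relative of Nr5a2, had the highest ratio at 0.21, and Zfpm2, a GATA cofactor, followed at 0.08. The lowest were Zfpm1, also a GATA cofactor, at -0.05 and Nr0b1 at -0.03. Nr0b1 is a nuclear receptor that represses Nr5a factors. Its probe was dim, with signals of 105 and 127 in the mutant and 146 and 115 in the WT, which limits what its ratio can show.

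Among 20 other regulators of pancreatic progenitors and of the acinar programme, 1 passed the 1.2-fold rule as higher and 1 as lower, and the median was 0.01. Onecut1, a homeodomain factor of progenitors and ducts, was 1.86-fold higher, with ratios of 0.95 and 0.84. Foxa2, a forkhead factor of foregut endoderm, was 1.28-fold lower, with ratios of -0.28 and -0.43. Meis2, a homeodomain factor, had -0.37 (-0.25 by its other probe) but missed the rule on the second array at -0.24. Sox9, a factor of progenitors and ducts, had 0.16.

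Enzyme and granule genes known as targets of PTF1 and Nr5a2 could be read in part only. Of 32 listed genes 28 were named on the array and all 28 were detected, but 15 had saturated spots in every channel, among them Cpa1, Cela2a, Ctrb1 and Cel, and 2 more in some channels. Over the remaining 11 the median was 0.10, with 3 past the 1.2-fold rule as higher and 2 as lower. Most of the 11 were in the brightest of the 10 intensity classes, where 4.18% of genes passed as higher and 4.85% as lower. Gp2 and Ctrl also passed the 2-fold rule. Gp2, which encodes a glycoprotein of the zymogen granule membrane, was 3.81-fold higher, and Serpini2, a serine protease inhibitor of the pancreas, was 1.72-fold higher. Klk1, a kallikrein protease, was 1.65-fold higher (0.54 log2 by its other probe). The chymotrypsin-like protease gene Ctrl was lower by 2.16-fold, with ratios of -1.08 and -1.15. Rnase1, the pancreatic ribonuclease, was 1.53-fold lower, with ratios of -0.40 and -0.83, and had -0.13 by its other probe. The other 6 ran from -0.22 for Cela1, an elastase, to 0.20 for Pnlip, the pancreatic lipase.

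Of 6 listed targets of Bhlha15, 5 were measured. Atp2c2, a calcium and manganese pump of the secretory pathway, was 1.36-fold lower, with ratios of -0.47 and -0.41. The other 4 did not pass, with Rab3d, a small GTPase of zymogen granules, at -0.15 (-0.04 by its other probe), Gjb1, the connexin 32 gene, at -0.04, Copz2 at 0.01 and Ccpg1 at 0.03. Gjb1 was dim, with signals of 118 and 112 in the mutant and 149 and 110 in the WT, which limits what its ratio can show. The median of the 5 was -0.04.

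**Figure D4:**
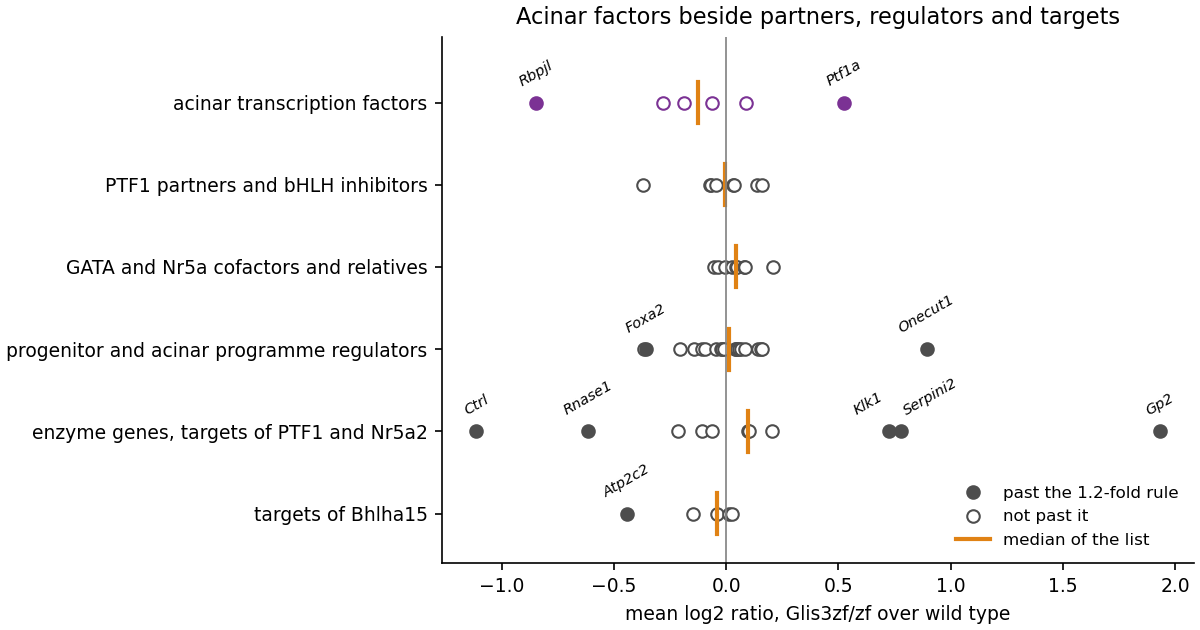
Mean log2 ratio of Glis3zf/zf over WT for the 6 factors (purple, top) and for 5 lists of partners, relatives, regulators and targets (grey), leaving out genes with a saturated spot. Filled points passed the 1.2-fold rule and carry the gene's name, Meis2 (open) is covered by Foxa2, and orange bars are medians, all between -0.13 and 0.10.

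The joint motif of the Rbpjl window was found in windows of 34 genes, of which 18 were measured. They included Ctrb1, a chymotrypsinogen gene saturated in both pools. The other 17 had a median ratio of 0.02, with Rbpjl itself the lowest at -0.85 and Qprt, an enzyme of NAD synthesis, the highest at 0.15. Rbpjl apart, none was beyond 0.15 in either direction. The motif was taken from the Rbpjl window with its single spacing, and these genes were not chosen as PTF1 targets. Their ratios are thus no measure of PTF1 activity.

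Transcripts of other cell types also differed between the pools. The 7 skeletal muscle markers were all higher, with a median of 3.29, and their summed signal was 21387 and 19717 in the mutant against 2272 and 2182 in the WT. Myh8, 1 of the 7, had 0.06 by its other probe. The 5 islet markers without a saturated spot were all lower, with a median of -1.73, and their summed signal was 43751 and 36515 in the mutant against 102195 and 92215 in the WT. Of 9 mesenchymal and stellate markers 3 passed the 1.2-fold rule, all higher, and the median of the 9 was 0.19. Pdgfra, 1 of these 3, had 0.04 by its other probe. All 4 mesothelial markers, from cells known to express Gata4, lay between 0.17 and 0.20 without passing the rule. The median was 0.16 over 7 duct markers and 0.15 over 6 heart markers, among which Tnnt2, at 0.41, was past the 1.2-fold rule. Tnnt2 was near background, with signals of 88.3 and 97.4 in the mutant and 85.7 and 66.8 in the WT. The 95th percentile of negative control spots lay between 60.8 and 76.2. The median was -0.35 over 5 endothelial markers, with 3 past the rule, all lower, of which Cdh5 had 0.07 by its other probe. Over 4 blood and macrophage markers the median was 0.24, with 2 past the rule, both higher. Of these, Adgre1 had 0.14 by its other probe. The median was -0.04 over 4 smooth muscle markers (0 past the rule) and 0.02 over 4 adrenal and gonad markers (1 past it, higher). It was 0.15 over 4 liver markers and 0.08 over the 6 detected of 7 intestine and stomach markers, with 0 past it. Of 10 acinar markers named on the array, 8 had a saturated spot, and the others were Cela1 and Pnlip, at -0.22 and 0.20. Whether any of these differences has a part in the ratios of the 6 factors was not tested.

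Under the 10 other ways of processing that were tried, Rbpjl stayed between -0.998 and -0.70 and Ptf1a between 0.44 and 0.61, and both passed the 1.2-fold rule in each, with the single arrays as the extremes. Not all of the 10 could move these values. The 2 filters on dim probes and the median over probes leave a gene with 1 probe well above background as it was. The deposited ratios repeat those of the software. Bhlha15 stayed between -0.36 and -0.19 and Gata6 between 0.02 and 0.10. Gata4 ran from -0.23 to -0.07 and Nr5a2 from -0.14 to 0.01.

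**Figure D5:**
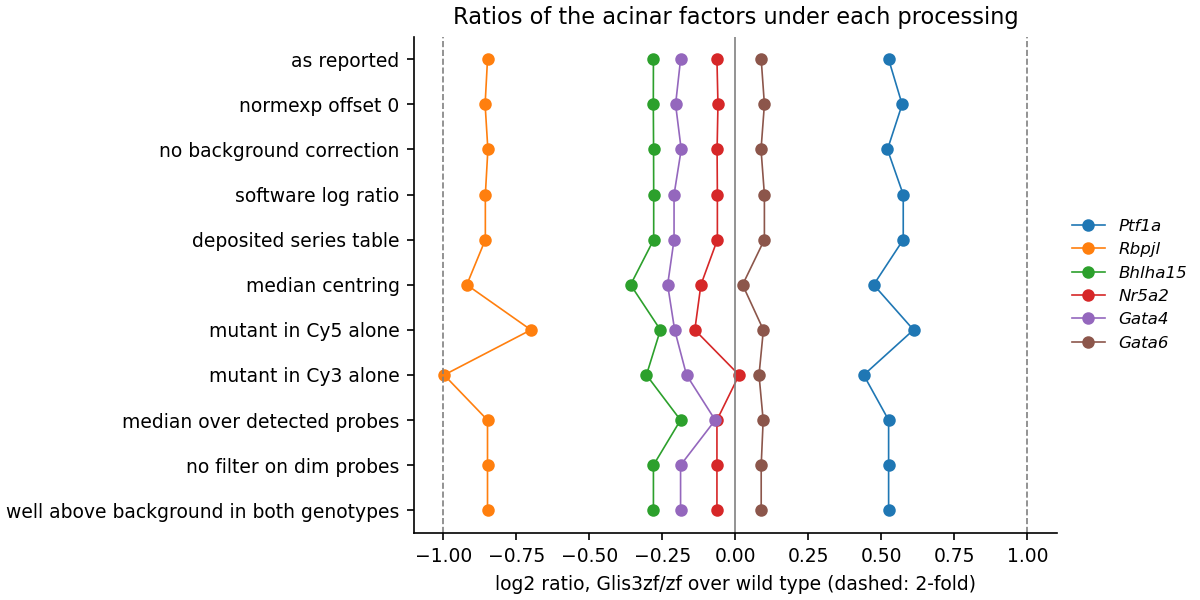
Log2 ratio of Glis3zf/zf over WT of each factor (horizontal axis, dashed lines at 2-fold) as reported and under 10 other ways of processing (rows). Rbpjl stays left of the other factors and Ptf1a right of them in every row, and none reaches 2-fold.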

How the data were processed

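RNA of 2 pooled pups per genotype was hybridised to 2 dye-swapped Agilent arrays. Per the labels, the authors started from 500 ng of total RNA and extracted spots with Feature Extraction 7.5 at default settings before loading them into Rosetta Resolver 6.0. The file headers name software modules 8.5.1.1. The deposited scanner files give spot intensity values and the software's log10 ratio of Cy5 over Cy3. The deposited series table gives log2 ratios, which were within 0.002 of the software's ratio, as mutant over wild type, for 99.99% and 99.98% of 41174 matched probes, with a median of 0 in each column. For the probe coordinates, the genome build was not given in the sources used here.

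From the intensity columns, backgrounds were corrected by normexp with an offset of 50 and arrays normalised by loess with control spots at weight 0 (limma 3.58.1, R 4.3.3). Of 41534 gene spots per array, 15 and 53 outlier spots were left out. The array with the mutant in Cy3 was turned round before averaging. Spots of a probe were averaged. A gene took its brightest probe, with probes free of saturated spots first, and was kept if that probe was detected. The software called 94.0 to 96.8% of spots well above background. Probes were named through RefSeq by accession (22072, and 142 by another accession), symbol (605) or older symbol (486), and 17869 stayed unnamed. Across 16507 detected genes the arrays correlated at 0.716 (Pearson) and 0.426 (Spearman), and genes are not independent replicates. With 1 sample per genotype the precision is that of 2 arrays and no p-value is given. Per list, the 2 highest and 2 lowest genes and any past a rule of size were named. Members, lists and rules were chosen with earlier results of these data known. Scripts were tested on simulated data. The alternatives were 2 other background corrections, the software's and the deposited ratios, median centring, each array alone, the median over probes, and 2 other filters on dim probes.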

Additional observations from a re-analysis of the deposited data

How the results depend on the processing

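Of the 6 factors, none changed the sign of its mean ratio under any of the 10 alternatives except Nr5a2, which was 0.01 with the mutant in Cy3 alone. The 2 filters on dim probes could not change any of the 6, whose probes were all well above background. On single arrays the ratio of Rbpjl was -0.70 (mutant in Cy5 alone) and -0.998 (mutant in Cy3 alone), and that of Gata4 was -0.069 as the median over its probes, because its probes disagree. Bhlha15 passed the 1.2-fold rule with the mutant in Cy3 alone. No factor passed the 2-fold rule in any alternative. Over all genes, 283 were higher and 424 lower by the 1.2-fold rule, of which 40.0% higher, against 210 and 641, or 24.7% higher, under median centring. The 1.2-fold rule called 707 genes, against 1089 with the software's ratio, 1091 with the deposited table, 1925 with the mutant in Cy5 alone and 1201 with the mutant in Cy3 alone, where 1 array must pass in place of 2. No paired analysis was possible because each genotype is 1 pool. Saturation limits what can be read of the brightest enzyme genes, and background what can be read of the dimmest probes.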
